A study of Mus musculus with 12 samples.

Results

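The genes of the mouse major histocompatibility complex, called *H2*, encode the molecules that display peptides on the cell surface, and they were followed here in brain and spleen of mice with and without the long noncoding RNA *Norad*. The members were all rows of the expression tables whose symbol begins with H2-, which gave 44 of 24062 genes. They comprised 3 classical class I genes (*H2-K1*, *H2-D1* and *H2-L*, class Ia), 28 nonclassical class I genes of the Q, T and M groups (9, 7 and 12, class Ib), 5 classical class II genes, 5 accessory class II genes of the DM and O pairs, and 3 rows that carry the prefix without being antigen-presenting molecules (*H2-K2*, *H2-Ke2* and *H2-Ke6*). RNA was sequenced from 12 libraries, 6 per tissue, from 3 mice of each genotype. All mice were 10-week-old C57BL/6 males, and the groups were Norad+/+ brain, Norad-/- brain, Norad+/+ spleen and Norad-/- spleen. Norad-/- mice carry a CRISPR/Cas9 deletion of the *Norad* sequence in every cell, made as independent founder lines; which line the sequenced mice came from, and whether a brain and a spleen came from the same mouse, is not given in the sources used here.

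Class I molecules consist of a heavy chain from the *H2* region and beta-2-microglobulin (*B2m*), are made by nearly all nucleated cells, and show peptides from inside the cell to CD8 T cells. Class II molecules are alpha and beta chain pairs made mainly by B cells, dendritic cells and macrophages. They are assembled on the invariant chain (*Cd74*), loaded with peptides with the help of the H2-DM pair and the modulating H2-O pair, and read by CD4 T cells. In the healthy brain both classes are known to be low, with class II held mostly by cells of the borders, vessels and blood.

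Of the 44 rows, 40 matched a gene of the GENCODE M21 annotation of GRCm38, all on chromosome 17 between 33938821 and 37483552. *H2-K1* lies at chr17:33996017-34000347 on the minus strand, *H2-D1* at chr17:35262730-35267499 on the plus strand and *H2-Aa* at chr17:34282744-34287823 on the minus strand. *H2-Ke2* is named *Pfdn6* there, and *H2-L*, *H2-Q8*, *H2-Q9* and *H2-T9* had no entry. *H2-K2* is annotated as a transcribed pseudogene, and *H2-Ea-ps*, *H2-Q5*, *H2-T10* and *H2-Bl* as polymorphic pseudogenes.

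Several rows could not be read as independent genes. The level as FPKM (fragments per kilobase of transcript, scaled to the mapped reads of the library) of *H2-Q8* stood at 0.970 to 0.971 times that of *H2-Q6* in all 12 libraries. *H2-Q9* stood at 1.003 to 1.01 times *H2-Q7*, and *H2-T9* at 1.03 to 1.05 times *H2-T22*. These pairs moved as one value, so each is best read as one measurement shown under 2 names. Counts and sums below still include both rows of each pair, and the *H2-L* row, except where these are left out by name. *H2-L* stood at 0.738 to 0.989 times *H2-D1*; the C57BL/6 haplotype is known to lack an *H2-L* gene, so its row is given but its source is uncertain. Among the 40 matched members, 15 shared no stretch of 75 bases, the read length, with transcripts of another gene. The share of such stretches found elsewhere was 1.55% for *H2-K1*, 7.10% for *H2-D1*, 9.10% for *H2-K2*, 21.1% for *H2-Q6*, 21.7% for *H2-Q7* and 26.1% for *H2-T22*, and it reached 52.0% for *H2-Ke6*, which overlaps a readthrough transcript.

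*Norad* itself bore out the genotype labels. It stood at 206, 259 and 635 FPKM in Norad+/+ brain and at 62.0, 42.9 and 56.3 FPKM in Norad+/+ spleen, and at no more than 0.0173 FPKM in any of the 6 Norad-/- libraries. Depth, estimated from the value that a single read adds at 5404 genes with one transcript, was 28.4 to 36.7 M reads in brain and 31.6 to 35.3 M reads in spleen. Tissue identity was clear from the markers: summed neuron markers stood at 2041 FPKM or more in brain and at 20.8 or less in spleen, and summed B cell markers at 1866 or more in spleen and at 6.74 or less in brain. Norad-/- brain 3 carried pituitary transcripts (summed markers 1330, against 1.03 or less in the other brain libraries). Norad+/+ spleen 3 carried pancreatic (262, against 0.25 or less) and liver transcripts (113, against 1.02 or less). Its summed neuron markers were also the highest of the spleen libraries, at 20.8 against 5.14 or less. Norad+/+ brain 3 had the lowest depth, at 28.4 M reads, and the highest *Norad* level.

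Promoters were searched for control elements for which the family is known. Some that hold them are printed, because members that sit in one cluster, such as *H2-Q7* and *H2-Q10*, differ in them. In RefSeq windows from 250 bases before to 50 bases after the start (GRCm38.p6), 32 members had a promoter. The NF-kappaB-type element GGGATTCCC was present, on either strand, in 4 of them (*H2-K1*, *H2-D1*, *H2-Q6* and *H2-Q7*), against 0.353% of 32851 mouse promoters. The interferon response core GAANNGAAA was present in 8 members (7.52% of all promoters) and the Y box GATTGG, bound by NF-Y, in 25 members (16.1% of all promoters). Capitals below mark these 3 elements in the class I promoters, where the interferon core and the Y box read on the opposite strand and none overlaps another. Each window runs 5′ to 3′ on the strand of its gene and was placed by the interferon core.
H2-K1 (chr17:34000328-34000467, minus strand): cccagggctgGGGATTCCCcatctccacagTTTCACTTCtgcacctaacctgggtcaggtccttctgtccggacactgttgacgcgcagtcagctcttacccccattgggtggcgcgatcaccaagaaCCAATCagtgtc
H2-D1 (chr17:35262914-35263053, plus strand): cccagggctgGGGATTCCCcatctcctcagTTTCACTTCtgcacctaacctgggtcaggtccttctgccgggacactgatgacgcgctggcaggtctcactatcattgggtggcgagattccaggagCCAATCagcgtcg
H2-Q7 (chr17:35439012-35439151, plus strand): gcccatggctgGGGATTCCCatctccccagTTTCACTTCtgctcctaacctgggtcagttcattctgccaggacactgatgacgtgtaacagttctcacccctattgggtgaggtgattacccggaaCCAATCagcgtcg
H2-Q10 (chr17:35469904-35470043, plus strand): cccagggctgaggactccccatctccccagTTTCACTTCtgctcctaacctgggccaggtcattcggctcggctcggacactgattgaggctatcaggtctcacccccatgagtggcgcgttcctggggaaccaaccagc

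All 4 windows held the interferon core, whereas the *H2-Q10* window held neither of the other 2 elements in these letters. In the class II windows below, which are placed by the Y box, the capitals mark it on the strand of the gene. The *H2-Eb1* promoter holds a further Y box, on the opposite strand and beyond the window printed.
H2-Aa (chr17:34287853-34287922, minus strand): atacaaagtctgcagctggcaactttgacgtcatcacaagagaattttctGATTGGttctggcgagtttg
H2-Eb1 (chr17:34305757-34305826, plus strand): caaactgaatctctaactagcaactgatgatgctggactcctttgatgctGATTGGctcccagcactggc
H2-Ob (chr17:34238797-34238866, plus strand): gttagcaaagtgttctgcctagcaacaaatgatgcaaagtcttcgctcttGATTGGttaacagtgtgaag
H2-DMb1 (chr17:34153079-34153148, plus strand): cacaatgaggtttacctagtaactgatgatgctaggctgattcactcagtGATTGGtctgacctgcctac
H2-DMb2 (chr17:34145108-34145177, plus strand): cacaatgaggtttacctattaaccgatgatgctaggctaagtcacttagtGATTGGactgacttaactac

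In Norad+/+ mice most *H2* genes were higher in spleen than in brain. The 2 tissues were normalised in separate tables, so their levels are set side by side without a test. Of the 44 members, 29 had all 3 Norad+/+ spleen values above all 3 Norad+/+ brain values, 4 the reverse, and 11 overlapped. The same counts were not made over all genes, so whether these differ from other genes cannot be told. In whole-tissue RNA, fewer cells of a type and less RNA per cell cannot be told apart. Averaged over the 6 libraries of each tissue, 29 members reached 1 FPKM in spleen and 15 did so in brain, while 15 stayed below it in both and 5 (*H2-M1*, *H2-M10.1*, *H2-M10.4*, *H2-M10.5* and *H2-M11*) were listed at 0 in all 12 libraries.

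**Figure D1:**
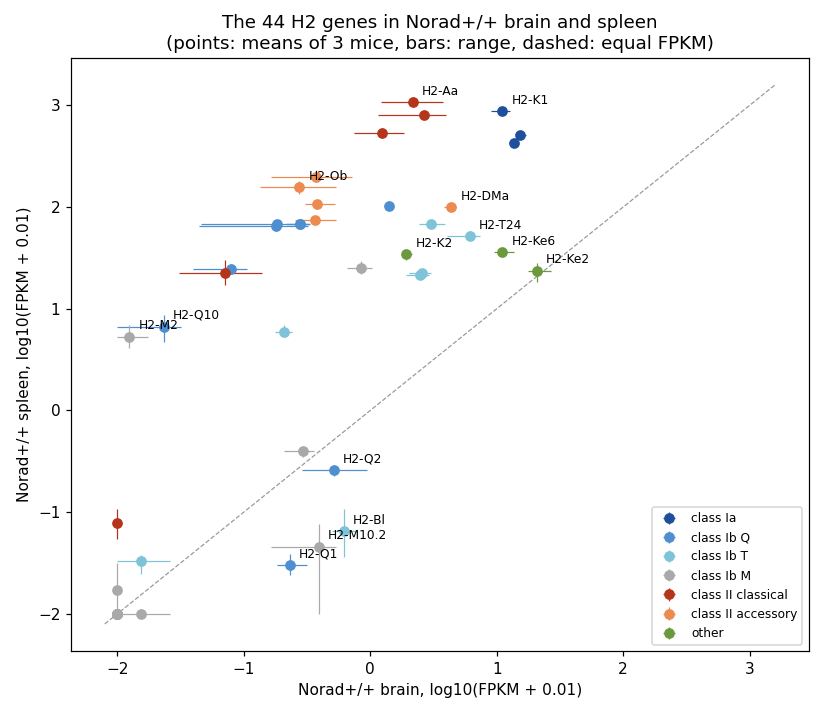
Levels of the 44 H2 genes in Norad+/+ brain (horizontal) and Norad+/+ spleen (vertical), as log10(FPKM + 0.01); points are means of 3 mice, bars the range, colours the gene groups, and the dashed line equal FPKM. Classical class I and class II genes sit far above the line, *H2-Ke2* near it, and *H2-Bl*, *H2-Q1*, *H2-Q2* and *H2-M10.2* below it.

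The order of the levels differed between tissues. In Norad+/+ spleen *H2-Aa*, the alpha chain of the I-A molecule, had the highest mean at 1070 ± 115 FPKM (SD, n = 3), followed by the class I heavy chain *H2-K1* at 869 ± 20.01 and the I-A beta chain *H2-Ab1* at 808 ± 59.4. The ranges of *H2-K1* (846 to 884) and *H2-Ab1* (741 to 855) overlapped, so those neighbours did not differ beyond their spread. *H2-Eb1*, the beta chain of I-E, followed at 532 ± 57.2 and *H2-D1* at 512 ± 20.4, again overlapping. The row of the I-E alpha chain, *H2-Ea-ps*, which is known not to be expressed in the C57BL/6 haplotype, stood at 0.0439 to 0.0963 FPKM. In Norad+/+ brain the highest member was *H2-Ke2*, a prefoldin subunit, at 20.7 ± 5.25 FPKM. Among antigen-presenting members *H2-D1* led at 15.3 ± 1.42 FPKM, followed by the *H2-L* row at 13.7 ± 1.10 and *H2-K1* at 11.02 ± 1.90. *H2-K1* was below *H2-D1* in every brain library, at 0.622 to 0.862 times its level, and above it in every spleen library, at 1.68 to 2.03 times.

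Spleen to brain ratios of the Norad+/+ means set the classical class I genes apart from the classical class II genes, while the other groups overlapped both. They were 31.1 to 78.9 for the classical class I genes and 305 to 494 for *H2-Ab1*, *H2-Eb1* and *H2-Aa*. Among the accessory class II genes the ratio was 594 for *H2-Ob*, 554 for *H2-DMb2*, 287 for *H2-Oa* and 208 for *H2-DMb1*, but only 22.9 for *H2-DMa*. All but *H2-DMa* rest on low Norad+/+ brain levels, so their order is uncertain. These were 0.125 to 0.521 FPKM for *H2-Ob*, 0.153 to 0.712 for *H2-DMb2*, 0.297 to 0.513 for *H2-Oa* and 0.243 to 0.523 for *H2-DMb1*. Each was highest in Norad+/+ brain 2. H2-DM needs both chains. Brain *H2-DMa* stood at 7.21 to 15.7 times *H2-DMb1* across the 6 libraries, whereas in spleen it stood at 1.30 to 1.46 times. That ratio leaves out the other beta chain row, *H2-DMb2*, which averaged 199 FPKM in Norad+/+ spleen against 74.4 for *H2-DMb1*. In brain both beta chain rows stayed below 1 FPKM in every library, so the balance of the chains there cannot be read from the ratio. Among nonclassical genes of at least 1 FPKM in spleen the ratio ranged from 388 for *H2-Q8* to 8.45 for *H2-T24*, leaving out *H2-Q10* and *H2-M2*, which were listed at 0 in a Norad+/+ brain library, and the steroid dehydrogenase gene *H2-Ke6* stood at 3.24. The 4 members higher in brain were all low: *H2-Bl* at 0.491 to 0.770 FPKM, *H2-M10.2* at 0.154 to 0.523, *H2-Q2* at 0.279 to 0.924 and *H2-Q1* at 0.174 to 0.305.

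The comparison of genotypes asks whether loss of *Norad* is accompanied by another level of *H2* transcripts. In spleen no *H2* gene passed the test, but most stood higher in Norad-/- mice: 26 of 29 members tested had a log2 fold change above 0, and their median was 0.28 (range -1.32 to 0.52) against -0.02 over all 12397 genes tested. The test was limma on log2(FPKM + 0.1), and fold changes are on that scale, which understates low genes. No member reached an adjusted p under 0.05, against 0.0323% of all genes. At an unadjusted p under 0.05, 17 members were higher in Norad-/- spleen (7.42% of all genes) and 2 were lower (13.6% of all genes). All 3 Norad-/- values lay above all 3 Norad+/+ values for 13 members (11.6% of all genes) and below them for 2 (14.9% of all genes). Without the rows *H2-L*, *H2-Q8*, *H2-Q9* and *H2-T9*, which had no entry in the annotation, 22 of 25 members were above 0, with a median of 0.29, and 14 were higher and 2 lower at that unadjusted p. Without Norad+/+ spleen 2, Norad-/- spleen 1 or Norad-/- spleen 2, 2 members (*H2-K1* and *H2-K2*) were higher at the unadjusted p, against 4.29%, 4.71% and 3.82% of all genes. Without Norad+/+ spleen 3 it was 7 members, against 5.96% of all genes. The number without Norad+/+ spleen 1 or without Norad-/- spleen 3 is not given here, and the *H2* medians were 0.343 and 0.350 there. The median ranged from 0.23 to 0.35 when single libraries were left out. With TPM, quantile or median-ratio scaling 26 of 29 members were again above 0.

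**Figure D2:**
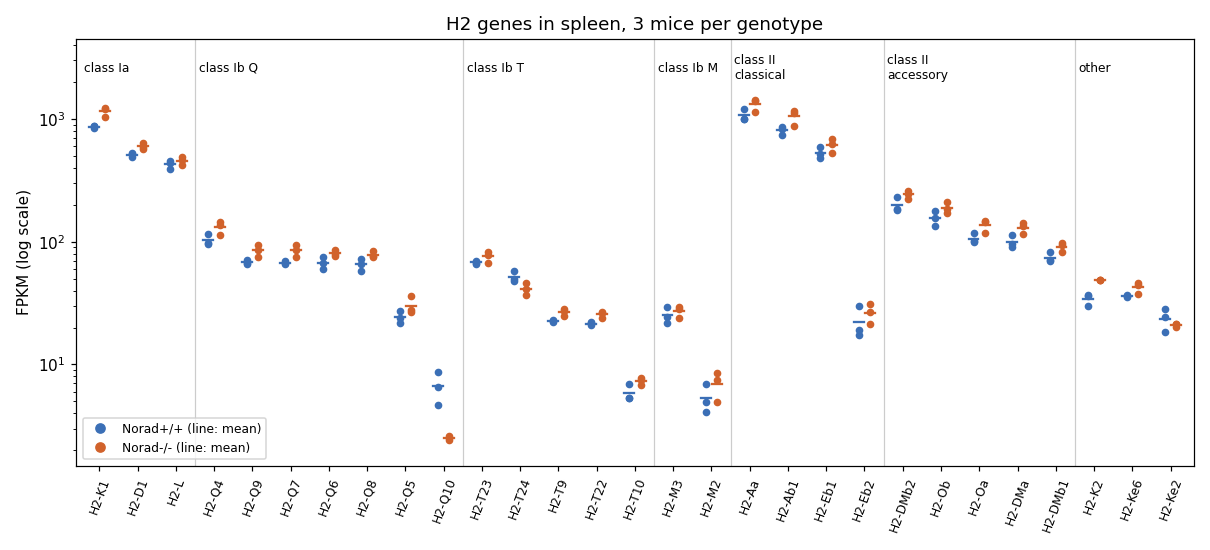
FPKM on a log axis of the 29 H2 genes that averaged 1 FPKM or more in spleen, by group; points are single mice (blue Norad+/+, orange Norad-/-) and short lines the means. Most orange means lie slightly above the blue ones, *H2-K2* and *H2-K1* do not overlap between genotypes, and *H2-Q10* and *H2-T24* lie lower in Norad-/- mice.

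Markers of other spleen cells moved along with the genotype, and apart from 1 fit given here their part in the *H2* differences was not tested. The red cell precursor list (12 of 12 genes tested) had a median log2 fold change of -3.39, with summed levels of 4246, 11419 and 10770 FPKM in Norad+/+ and 1424, 1321 and 6915 in Norad-/-, which overlapped. All 8 dividing cell markers lay lower at an unadjusted p under 0.05, with a median of -1.45. Their sums overlapped, at 157 to 421 in Norad+/+ and 63.6 to 181 in Norad-/-. All 8 neutrophil markers lay below 0, with a median of -1.97 and 3 at an unadjusted p under 0.05. Their sums also overlapped, at 865 to 2471 in Norad+/+ and 167 to 1523 in Norad-/-. All 10 macrophage markers lay below 0 (median -0.50, 7 at an unadjusted p under 0.05), with sums of 1341 to 1715 in Norad+/+ and 951 to 1305 in Norad-/-. All 8 T cell markers lay higher at an unadjusted p under 0.05 (median 0.58, sums 321 to 357 and 453 to 541). B cell markers lay above 0 in 10 of 10 (median 0.15, 2 at an unadjusted p under 0.05, sums 1866 to 2335 and 2137 to 2423), and dendritic cell markers in 8 of 9 (median 0.33, sums 126 to 147 and 173 to 196). No marker of these lists was at 0 in a spleen library. Over all genes, 7.42% were higher and 13.6% lower in Norad-/- spleen at an unadjusted p under 0.05. As an alternative chosen after seeing the data, the mean log2(FPKM + 0.1) of the 12 red cell precursor genes in each library was added as a covariate. The *H2* median was then 0.09 and 22 of 29 members were above 0. At an unadjusted p under 0.05, 2 members were higher (2.37% of all genes) and 1 was lower (3.61% of all genes).

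**Figure D3:**
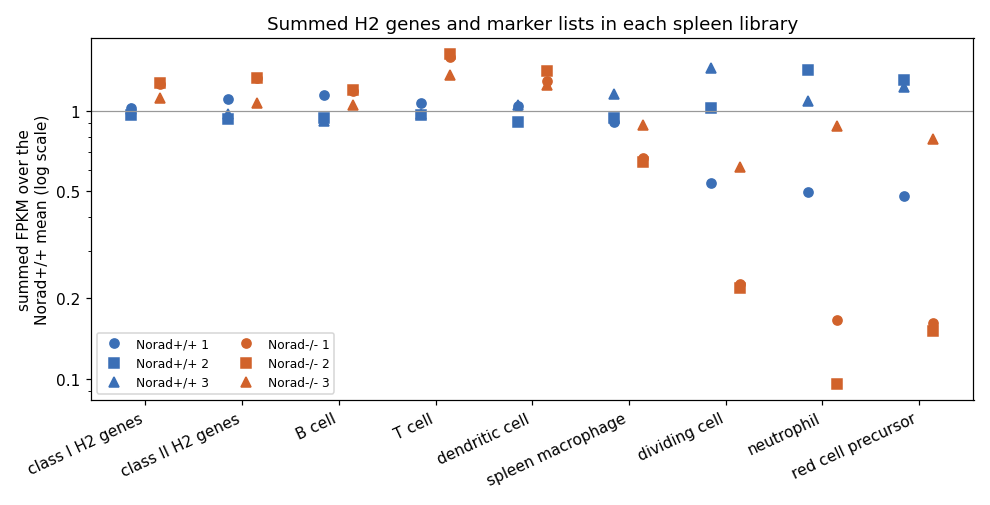
Summed FPKM of class I and class II H2 genes and of 7 marker lists in each spleen library, divided by the mean of the 3 Norad+/+ libraries, on a log axis; symbols number the mice. Norad-/- spleens 1 and 2 have the highest H2 and T cell sums and the lowest red cell precursor sums, and Norad-/- spleen 3 lies between them and all Norad+/+ libraries for the class I, T cell, dendritic cell and macrophage sums.

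Class II transcripts were set against the B cell markers, the most abundant class II cells of the spleen. The summed class II level was 3376, 2848 and 2979 FPKM in Norad+/+ and 4071, 4064 and 3279.9 in Norad-/-, and thus overlapped. Divided by the summed B cell markers it stood at 1.45, 1.497 and 1.60 in Norad+/+ and 1.70, 1.68 and 1.53 in Norad-/-, and again overlapped. The summed class I level, at 2468, 2324 and 2439 FPKM in Norad+/+ and 3029.8, 3049.5 and 2677 in Norad-/-, did not overlap. That sum, and the *H2* total, count both rows of each twin pair and the *H2-L* row. The share of the *H2* total held by *H2-Aa*, *H2-Ab1* and *H2-Eb1* was 42.3% to 44.3% in Norad+/+ and 42.0% to 44.5% in Norad-/-.

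Of the classical class I genes, *H2-K1* stood furthest apart. It was at 878, 846 and 884 FPKM in Norad+/+ spleen and at 1204, 1219 and 1041 in Norad-/- spleen. The groups did not overlap, and the log2 fold change was 0.41 (SE 0.09, limma adjusted p = 0.152). It was 0.77 with quantile normalization and 0.25 with the red cell precursor covariate. *H2-D1* was at 523, 488 and 525 FPKM and at 593, 632 and 572. These groups did not overlap either, with a smaller fold change of 0.23 (SE 0.08, limma adjusted p = 0.208). *H2-L* was at 437, 391 and 451 FPKM and at 467, 487 and 422, which overlapped. The ratio of *H2-K1* to *H2-D1* was 1.68, 1.73 and 1.68 in Norad+/+ and 2.03, 1.93 and 1.82 in Norad-/-, so that all Norad-/- libraries were higher.

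The Q group, class Ib genes next to *H2-D1*, had 7 members tested, 6 of them above 0. *H2-Q4* was at 115, 95.6 and 97.8 FPKM in Norad+/+ and at 146, 138 and 114 in Norad-/-, a log2 fold change of 0.37 with overlapping groups. *H2-Q7*, which encodes a Qa-2 antigen, was at 65.7, 66.9 and 70.2 FPKM and at 94.3, 85.9 and 74.8, with no overlap and a fold change of 0.32. Its twin row *H2-Q9* gave the same picture at 66.3, 67.5 and 70.8 against 94.7, 86.2 and 75.5 FPKM. *H2-Q6* was at 75.0, 67.3 and 59.9 FPKM and at 86.0, 79.2 and 76.9, and its twin row *H2-Q8* at 72.8, 65.4 and 58.2 and at 83.4, 76.9 and 74.6; neither overlapped (0.26 for both). *H2-Q5* was at 27.3, 23.9 and 21.9 FPKM and at 35.8, 28.0 and 26.7, which overlapped.

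*H2-Q10*, a secreted class I molecule known from liver, went the other way. It was at 4.67, 6.54 and 8.75 FPKM in Norad+/+ spleen and at 2.52, 2.60 and 2.43 in Norad-/- spleen. Every Norad-/- value lay below every Norad+/+ value, and the log2 fold change of -1.32 (SE 0.22, limma adjusted p = 0.138) was the largest in size among the members tested in spleen. Its highest value was in the library with liver transcripts (Norad+/+ spleen 3), and without that library the fold change was -1.10. Norad+/+ spleens 1 and 2 also lay above all Norad-/- libraries; their summed liver markers were 1.02 and 0.457 FPKM, against 0.405, 0.236 and 0.393 in Norad-/- spleen, and the part of liver transcripts in the difference was not tested. With the red cell precursor covariate it was -1.17.

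Of the T group 4 of 5 tested members lay above 0. *H2-T22*, a ligand of some gamma delta T cells, was at 22.1, 21.6 and 21.03 FPKM in Norad+/+ and at 26.2, 26.9 and 23.7 in Norad-/- (0.25), and its twin row *H2-T9* at 23.2, 22.7 and 22.1 and at 27.4, 28.1 and 24.7 (0.24), both without overlap. *H2-T10* was at 6.93, 5.34 and 5.30 FPKM and at 7.77, 7.43 and 6.84 (0.33), which overlapped. *H2-T23*, which encodes Qa-1, the ligand of the CD94/NKG2 receptors of natural killer cells, was at 66.3, 67.6 and 69.6 FPKM and at 82.8, 78.1 and 67.4 (0.16), overlapping through Norad-/- spleen 3. *H2-T24* was the exception at 49.3, 58.0 and 47.5 FPKM in Norad+/+ and 41.3, 36.8 and 46.4 in Norad-/-. All 3 Norad-/- values were lower, by a log2 fold change of -0.32 (SE 0.12, limma adjusted p = 0.222). In the M group *H2-M3*, which presents formylated peptides, was at 29.3, 24.2 and 21.8 FPKM and at 29.3, 28.2 and 23.9 (0.12), and *H2-M2* averaged 5.30 and 6.96 FPKM (0.38), both overlapping.

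All 4 classical class II genes tested lay above 0, with mostly overlapping groups. *H2-Aa* was at 1203, 1006 and 1002 FPKM in Norad+/+ and at 1396, 1419 and 1133 in Norad-/-. Norad-/- spleen 3 fell within the Norad+/+ range, and the log2 fold change was 0.30 (SE 0.13, limma adjusted p = 0.259). It was 1.05 with quantile normalization and 0.014 with the red cell precursor covariate. *H2-Ab1* was at 828, 741 and 855 FPKM and at 1125, 1158 and 883. It was the only one of the 4 without overlap, at 0.38 (SE 0.13, limma adjusted p = 0.2003). *H2-Eb1* was at 594, 481 and 519.7 FPKM and at 689, 631 and 531 (0.21). *H2-Eb2*, a second beta chain gene of the E subregion, was at 30.2, 19.1 and 17.3 FPKM and at 31.1, 26.6 and 21.5 (0.28), with Norad+/+ spleen 1 above 2 of the 3 Norad-/- libraries.

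The 5 accessory class II genes lay between 0.27 and 0.39. *H2-DMa*, the alpha chain of the peptide exchange factor, was at 113, 90.8 and 95.2 FPKM in Norad+/+ and at 135, 141 and 115 in Norad-/- (0.39, SE 0.12, limma adjusted p = 0.187). *H2-Oa*, the alpha chain of the factor that restrains it, was at 118, 102 and 98.6 FPKM and at 144, 148 and 118. Neither overlapped, though the lowest Norad-/- and the highest Norad+/+ value of *H2-Oa* were nearly equal. *H2-DMb1* was at 82.0, 70.1 and 71.0 FPKM and at 94.9, 96.8 and 81.8, *H2-DMb2* at 229, 181 and 186 and at 246, 259 and 224, and *H2-Ob* at 179.7, 156 and 135 and at 209, 185 and 172. In each of these 3 genes Norad-/- spleen 3 lay below Norad+/+ spleen 1.

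The 3 rows outside antigen presentation did not move as one. The pseudogene *H2-K2* was at 30.1, 36.1 and 36.9 FPKM in Norad+/+ spleen and at 48.9, 49.1 and 49.0 in Norad-/- spleen. This was the highest fold change of the members in spleen, 0.52 (SE 0.10, limma adjusted p = 0.141), and the Norad-/- values were nearly identical; with the red cell precursor covariate it was 0.59. *H2-Ke6* was at 35.8, 35.2 and 36.5 FPKM and at 44.4, 45.8 and 37.6 (0.25), without overlap. *H2-Ke2* was at 18.3, 24.2 and 28.3 FPKM and at 20.2, 21.2 and 21.5 (-0.15), the Norad-/- values lying inside the Norad+/+ range.

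The genes that act with class I were mostly above 0 in spleen as well. Of 15 class I partners tested 13 lay above 0, with a median of 0.22, and none passed the adjusted test. At an unadjusted p under 0.05 only 2 were higher (7.42% of all genes) and 2 lower (13.6% of all genes). *B2m*, the light chain of every class I molecule, was at 4683, 4639 and 4511 FPKM in Norad+/+ and 5605, 4871 and 5396 in Norad-/- (0.20, no overlap). *Nlrc5*, the transactivator of class I promoters, was at 27.7, 23.1 and 18.5 FPKM and at 33.1, 29.1 and 26.9 (0.37), which overlapped. The peptide transporter gene *Tap1* had a fold change of 0.28 and tapasin (*Tapbp*) one of 0.09. The tapasin-related *Tapbpl* (0.43) and the immunoproteasome subunit *Psmb10* (0.31) were the 2 higher ones, and the chaperones *Calr* (-0.35) and *Canx* (-0.28) the 2 lower ones. *H2-K1* stood at 0.182 to 0.196 times *B2m* in Norad+/+ spleen and at 0.193 to 0.250 times in Norad-/- spleen.

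Class II partners were divided. Of 12 tested 7 lay above 0, with a median of 0.03. *Cd74* was at 3599.9, 3282 and 3179.8 FPKM in Norad+/+ and at 3955, 4561 and 3868 in Norad-/- (0.30, SE 0.11, limma adjusted p = 0.213), and the class II transactivator *Ciita* was at 32.6, 36.0 and 31.4 FPKM and at 38.3, 43.6 and 40.4 (0.29, SE 0.09, limma adjusted p = 0.187). Neither overlapped. *Lgmn*, a lysosomal protease, had a fold change of -0.30 and was the 1 class II partner lower at an unadjusted p under 0.05. The class I-like *Cd1d1*, which presents lipids, had a fold change of 0.29. Interferon response genes, which are induced along with class I, went both ways: 7 of 16 were above 0, with a median of -0.04. At an unadjusted p under 0.05 *Igtp* was higher (0.39) and *Isg15* (-1.74) and *Oas1a* (-0.61) were lower, while *Irf1* (0.34) and *Gbp2* (0.33) did not reach that p. Of the other genes lying among the *H2* genes on chromosome 17, 104 of 155 were tested in spleen, and their median was 0.04. At an unadjusted p under 0.05, 8 of them were higher (7.42% of all genes) and 3 lower (13.6% of all genes).

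**Figure D4:**
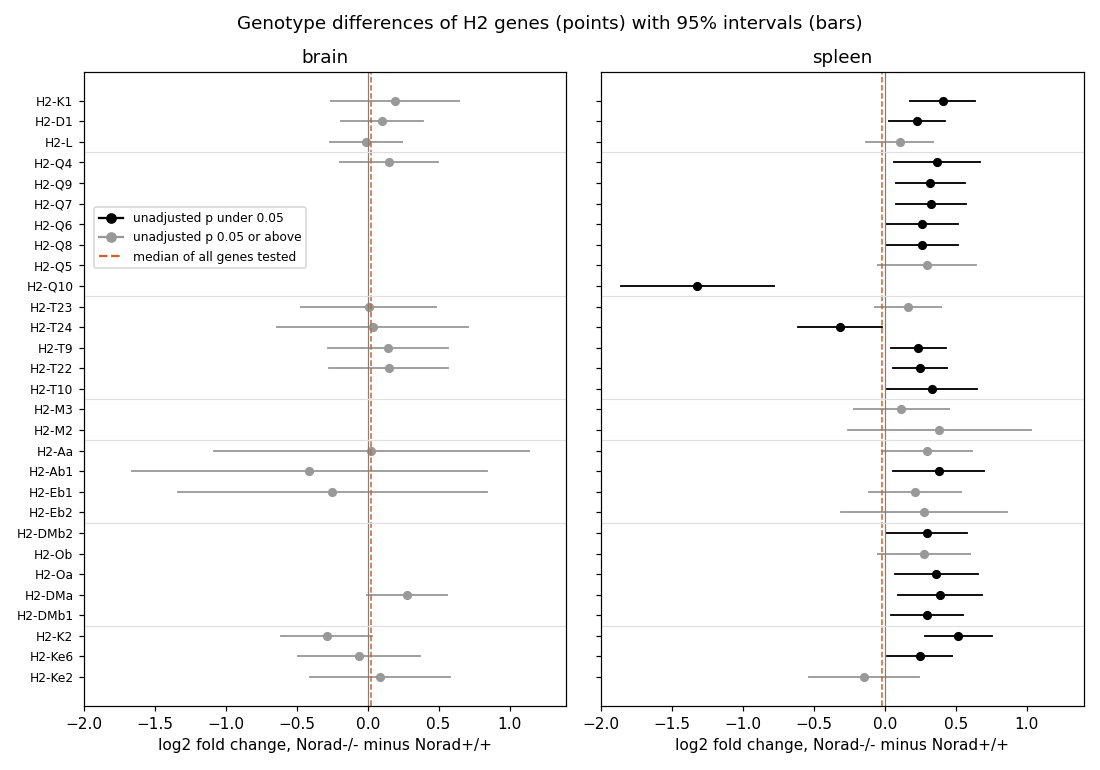
Log2 fold change, Norad-/- minus Norad+/+, of the H2 genes tested in brain (left, 15 genes) and spleen (right, 29 genes), with 95% confidence intervals from limma; black marks an unadjusted p under 0.05 and the dashed line is the median of all genes tested. In spleen 26 of 29 points lie to the right of 0, and in brain all 15 intervals include 0.

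In brain no *H2* gene passed the test. Of 15 members tested none reached an adjusted p under 0.05 in limma (0.0153% of 13051 genes), and none reached an unadjusted p under 0.05 in either direction (3.73% of all genes were higher and 2.89% lower). Their median log2 fold change was 0.03, against 0.02 over all genes, with 10 of 15 above 0, and the median was below 0 under some alternatives, at -0.0024 with quantile normalization and -0.0125 without Norad-/- brain 3. Groups did not overlap for 1 higher member, *H2-DMa* (10.6% of all genes), and 1 lower member, *H2-K2* (6.56% of all genes). *H2-DMa* was at 4.77, 4.49 and 3.81 FPKM in Norad+/+ and at 5.28, 4.95 and 5.61 in Norad-/- (0.28, SE 0.12, limma adjusted p = 0.718). *H2-K2* was at 1.77, 1.85 and 2.12 FPKM and at 1.54, 1.38 and 1.72 (-0.29, SE 0.13, limma adjusted p = 0.718). With the filter set at 0.1 FPKM, or with no filter, 2 members were higher at the unadjusted p, *H2-DMb1* (0.73) and *H2-Q1* (0.59), against 3.87% and 3.76% of all genes, and neither passed the adjusted test in limma.

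The class I genes tested in brain overlapped between genotypes. *H2-D1* was at 14.6, 16.98 and 14.4 FPKM in Norad+/+ and at 15.6, 15.3 and 18.4 in Norad-/- (0.10, 95% interval -0.19 to 0.39). *H2-K1* was at 11.3, 12.7 and 8.98 FPKM and at 13.4, 10.09 and 14.4 (0.19, -0.26 to 0.64), and *H2-L* at 12.5, 14.4 and 14.3 and at 12.8, 13.4 and 14.6 (-0.01). Of the other class I genes tested, *H2-Q4*, *H2-T22*, *H2-T9*, *H2-T23* and *H2-T24* lay between 0.01 and 0.15, with *H2-T23* and *H2-T24* below 0 under quantile normalization. *H2-Ke2* was at 17.6, 17.7 and 26.8 FPKM and at 22.1, 18.3 and 24.9 (0.09), and *H2-Ke6* at 9.89, 9.55 and 13.7 and at 9.55, 9.71 and 12.3 (-0.06). For both, the library numbered 3 was the highest of its genotype.

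The classical class II genes of brain varied more between mice than between genotypes. *H2-Aa* was at 1.52, 3.77 and 1.21 FPKM in Norad+/+ and at 2.50, 1.26 and 2.34 in Norad-/-. *H2-Ab1* was at 1.14, 3.97 and 2.83 FPKM and at 2.69, 1.01 and 1.92, and *H2-Eb1* at 0.737, 1.84 and 1.09 and at 1.53, 0.506 and 1.07. Norad+/+ brain 2 was the highest of its genotype and Norad-/- brain 1 the highest of its own for each of these 3 genes. The intervals were accordingly wide, -1.08 to 1.13 for *H2-Aa*, -1.66 to 0.84 for *H2-Ab1* and -1.34 to 0.84 for *H2-Eb1*. *Cd74* followed the same libraries, at 3.16, 12.7 and 4.19 FPKM and at 9.37, 3.09 and 7.12. So did the summed B cell markers, at 1.22, 6.74 and 1.07 FPKM and at 4.39, 1.22 and 1.73, and the plasma cell gene *Igj* at 0.186, 0.699 and 0.215 and at 0.505, 0.116 and 0.340. Of the 10 B cell markers, *Ms4a1*, *Blk* and *Fcrla* were at 0 in Norad+/+ brain 1 and *Blk* in Norad-/- brain 2, and none was at 0 in the other 4 brain libraries; the part of such cells in the class II values was not tested. *H2-DMa* did not follow them: it stood at 1.19 times *H2-Aa* in Norad+/+ brain 2 and at 2.11 to 3.94 times in the other 5 libraries.

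**Figure D5:**
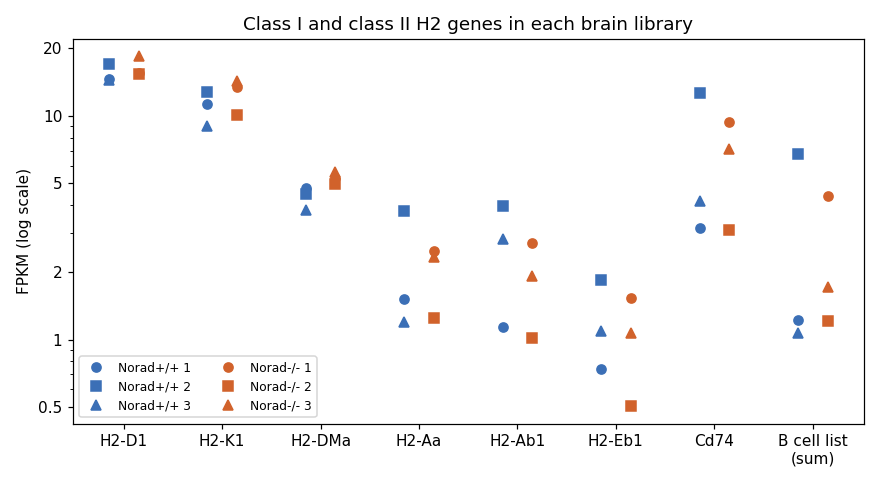
FPKM on a log axis of class I genes, class II genes, *Cd74* and the summed B cell markers in the 6 brain libraries; colours are genotypes and symbols number the mice. Norad+/+ brain 2 and Norad-/- brain 1 are the highest of their genotypes for *H2-Aa*, *H2-Eb1*, *Cd74* and the B cell list, while *H2-D1* and *H2-DMa* vary little.

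Members averaging below 1 FPKM in brain were outside the filter of the test given first. *H2-DMb1* lay at 0.243 to 0.523 FPKM in Norad+/+ and at 0.551 to 0.777 in Norad-/- brain, and *H2-Q1* at 0.174 to 0.305 and 0.352 to 0.395. *H2-M5* lay at 0.197 to 0.347 FPKM and 0.369 to 0.478, and *H2-T10* at 0.165 to 0.229 and 0.137 to 0.154. The genotypes did not overlap for these 4 genes, of which *H2-T10* was the lower one in Norad-/- brain. The share of all genes under 1 FPKM without overlap was not computed. Among genes of at least 1 FPKM in brain it was 10.6% for higher and 6.56% for lower genes. *H2-M3* averaged 0.842 and 0.871 FPKM and *H2-Bl* 0.606 and 0.522. Class I genes of the M10 group, known from the vomeronasal organ, were listed at 0.523 FPKM or less in every brain library. In spleen the 15 untested members included *H2-M5* at 0.386 and 0.317 FPKM and *H2-Q2* at 0.247 and 0.304, and *H2-Ea-ps* reached 0.152 FPKM at most.

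Whether the genotype difference differs between the tissues was tested for the 15 members that averaged 1 FPKM or more in both, in a fit over all 12 libraries with an interaction term. The fit took the 12 libraries as independent, although a brain and a spleen may come from 1 mouse. For 13 of them the spleen difference was above the brain difference, but none passed the adjusted test in limma (0.0191% of 10481 genes). The 1 member at an unadjusted p under 0.05 was *H2-K2* (4.26% of all genes had the spleen difference above the brain difference at that p). Its log2 fold change was -0.29 in brain and 0.52 in spleen, a difference of 0.81 (SE 0.16, limma adjusted p = 0.153), and it passed the adjusted test when each library was rescaled to TPM. For *H2-K1* the difference was 0.21 (95% interval -0.28 to 0.71) and for *H2-Ab1* 0.79 (-0.49 to 2.07), and both intervals included 0.

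The *Norad* transcript is known for binding PUMILIO proteins, which recognise the PUMILIO response element UGUANAUA in 3′ untranslated regions and lower the level of their targets. *H2* genes carry few of these elements. Of 36 members with an annotated 3′ untranslated region 2 held at least 1 element and 0 held more, against 23.2% and 7.20% of 21048 genes, and their untranslated regions were also shorter, with a median of 432 bases against 961. The 2 sites are shown with the element in capitals, written as DNA.
H2-T24 (position 19 of the untranslated region): cccagggacaaTGTAAATAgtttacagctc
H2-M3 (position 269 of the untranslated region): aaaaataaggaTGTAGATAtagctttatta

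*H2-T24* had a log2 fold change of -0.32 in spleen and 0.03 in brain, and *H2-M3* one of 0.12 in spleen. Whether the elements have a part in these values was not tested. *H2-Q10* held no such element, and neither did the other members with an annotated untranslated region.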

How the data were processed

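Libraries were poly(A)-selected and stranded (TruSeq), sequenced as 75 base single reads. Per the labels and the study's methods, the authors passed reads through NGS QC Toolkit 2.3.3, aligned them to GRCm38 (mm10) with TopHat2 2.0.12 and kept uniquely mapped reads, which leaves fewer reads for members with near-identical copies. The deposited values are FPKM per gene from StringTie 1.2.2, 1 table per tissue; the annotation behind them is not given in the sources used here. The submitters' notes also name featureCounts 1.4.6 and edgeR 3.8.6, used for counts that were not analysed here.

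Values were tested with limma 3.58.1 (R 4.3.3, variance trend) on log2(FPKM + 0.1) within each tissue, over genes averaging 1 FPKM or more in its 6 libraries. P-values were two-sided and adjusted by Benjamini-Hochberg over all genes tested, with a threshold of 0.05. They measure the spread between 3 mice per group. On simulated data with 200 genes moved, a log2 change of 1 was found in 58% of cases among 13051 brain genes and 59% among 12397 spleen genes, and a change of 2 in 93% and 91%. Depth is an estimate, since no counts were used, so no counting intervals are given.

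Members and gene lists were chosen with earlier results of these data known. Members averaging 10 FPKM or more in a tissue, or an unadjusted p under 0.05, were given by library, those from 1 to 10 FPKM by fold change or range, and the rest by range or name. Among partners *B2m*, *Tap1*, *Tapbp*, *Nlrc5*, *Cd74* and *Ciita* were always named. Tables were read with Python 3.11.15 and pandas 2.3.3. Gene positions, transcripts and 3′ untranslated regions came from GENCODE M21, promoters from RefSeq (GRCm38.p6). Samples were grouped by the genotype and tissue in their labels. Alternatives covered the pseudocount, the filter, scaling, the variance model, library weights, a replicate block and leaving out each library.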

Additional observations from a re-analysis of the deposited data

How the results depend on the processing

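No *H2* gene passed the threshold in either tissue under any alternative except array weights, and in the test of the difference between tissues except under TPM rescaling (1 member, *H2-K2*) and array weights (5 members). Array weights gave 27 members in spleen (25 higher, 2 lower) along with 4730 of 12397 genes; the weight was 22.6 for Norad+/+ spleen 2 against 0.291 to 1.21 for the other spleen libraries, and the weights did not converge. Leaving out each library in turn, the number past the threshold was 0 in each tissue, and the median ranged from 0.227 to 0.350 in spleen and from -0.0125 to 0.164 in brain. The spleen median was 0.398 with TPM rescaling, where the median of all genes moved by over 0.1 to 0.098; relative to all genes the *H2* median was 0.299 before and 0.300 after. It was 0.0896 with the red cell precursor covariate (0.142 relative to all genes). That covariate, and the removal of both brain libraries numbered 3, were chosen after seeing the data.

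With the covariate 6 spleen members turned their direction: *H2-Eb1* -0.051, *H2-Eb2* -0.187, *H2-L* -0.024, *H2-M2* -0.265, *H2-M3* -0.158 and *H2-Ke2* 0.033. No other spleen member turned under any alternative. In brain 11 of 15 members turned under at least 1 alternative. *H2-Aa* was -0.0014 on log2(FPKM + 1), -0.0062 with quantile normalization and -0.0038 with median-ratio factors. *H2-T23* was -0.0228 with quantile normalization and -0.0232 with median-ratio factors, *H2-T24* was -0.0024 with quantile normalization, and *H2-L* was 0.016 with TPM rescaling. With array weights *H2-Aa* was -0.789, *H2-D1* -0.048, *H2-K1* -0.127, *H2-T22* -0.059, *H2-T24* -0.083, *H2-T9* -0.058 and *H2-Ke6* 0.013. Without both brain libraries numbered 3 *H2-Aa* was -0.413, *H2-D1* -0.027, *H2-K1* -0.045, *H2-T22* -0.082, *H2-T24* -0.046 and *H2-T9* -0.089. Leaving out single brain libraries, the fold change ranged from -0.287 to 0.497 for *H2-Aa*, -0.568 to 0.147 for *H2-Eb1*, -0.0125 to 0.288 for *H2-Ke2*, -0.177 to 0.103 for *H2-Ke6*, -0.082 to 0.0295 for *H2-L*, -0.0085 to 0.278 for *H2-T22*, -0.140 to 0.198 for *H2-T23*, -0.241 to 0.229 for *H2-T24* and -0.0161 to 0.272 for *H2-T9*. The causes were not tested.

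Replicate numbers are shared between genotypes, but same-numbered libraries deviated together only in part (correlations of 0.061, 0.068 and 0.11 in brain and 0.338, -0.147 and 0.29 in spleen), so the numbers were not taken as pairs. With a replicate block 0 members passed in brain and 0 in spleen, and the spleen median was 0.277. In the self-test a simulated log2 change of 1 was found for 58% to 59% of genes and smaller ones were not simulated.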
